A study of Mus musculus with 9 samples.

Results

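The Pax genes encode transcription factors that share a paired domain, a DNA-binding module named after the Drosophila gene paired, and mouse has 9 of them, Pax1 to Pax9. They were chosen by name: each gene identifier of the count tables was mapped to its symbol, and the 9 symbols Pax1 to Pax9 were each found once among 48440 genes. RNA was sequenced from J1 cells, an established line of mouse embryonic stem cells, in 3 groups of 3 biological replicates. All libraries carried the genotype Suz12-AID, in which Suz12 bears a degron that auxin triggers (Suz12 belongs to the core of Polycomb repressive complex 2, PRC2), and all were grown on gelatin with serum, LIF and the inhibitors PD0325901 and CHIR99021. Mock cells are the untreated control, and Auxin cells were held in 50 µM indole-3-acetic acid for 96 h. Reintroduction cells had the same 50 µM for 96 h and then had the auxin washed out for 4.5 h. Whether the tagged line is 1 clone is not given in the sources used here, and untagged cells given auxin were not analysed here.

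PRC2 methylates lysine 27 of histone H3, and the promoters of many developmental transcription factors, Pax genes among them, carry this mark in embryonic stem cells and are transcribed weakly or not at all. The Pax proteins fall into 4 subfamilies by their paired domain and by whether they keep an octapeptide and a homeodomain. Pax1 and Pax9 act in the sclerotome and the pharyngeal pouches. Pax2, Pax5 and Pax8 act in kidney, midbrain, thyroid and B cells, Pax3 and Pax7 in neural crest and muscle progenitors, and Pax4 and Pax6 in eye, brain and pancreatic islets.

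The sequences before the start sites of Pax9, Pax8 and Pax6 are shown because these genes passed the test in Auxin against Mock and have an entry in the RefSeq promoter table of GRCm38.p6. Pax3, which passed too, and Pax4 are without an entry there. Each line is the 250 bases before the RefSeq start, read 5′ to 3′ on the gene's strand, with every CG dinucleotide in capitals. Pax9 lies on the plus strand at chr12:56695221-56695470, Pax8 on the minus strand at chr2:24475600-24475849, and Pax6 on the plus strand at chr2:105668646-105668895. None of the 3 stretches overlaps an exon of its own gene in the count tables' annotation. The Pax8 and Pax6 stretches lie just outside the bounds of their genes there. The Pax9 stretch lies inside its gene, which begins at 56691767 in that annotation, so it is not the sequence before the gene's annotated 5′ end.
Pax9: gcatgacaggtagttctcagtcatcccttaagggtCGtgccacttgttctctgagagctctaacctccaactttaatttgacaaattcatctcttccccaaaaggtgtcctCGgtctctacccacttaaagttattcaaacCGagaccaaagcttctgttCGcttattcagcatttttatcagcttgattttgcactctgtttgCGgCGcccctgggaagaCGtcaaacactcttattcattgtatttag
Pax8: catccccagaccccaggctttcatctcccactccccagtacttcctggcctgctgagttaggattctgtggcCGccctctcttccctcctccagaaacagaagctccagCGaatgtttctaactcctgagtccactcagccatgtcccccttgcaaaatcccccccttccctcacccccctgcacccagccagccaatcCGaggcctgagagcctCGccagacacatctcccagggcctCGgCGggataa
Pax6: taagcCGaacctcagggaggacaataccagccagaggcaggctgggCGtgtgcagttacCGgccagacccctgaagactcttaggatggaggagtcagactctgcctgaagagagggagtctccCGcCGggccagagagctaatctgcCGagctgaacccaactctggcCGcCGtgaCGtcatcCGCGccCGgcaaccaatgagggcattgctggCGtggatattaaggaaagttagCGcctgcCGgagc

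CpG content differed between the stretches at these RefSeq starts, of which that of Pax9 lies inside the gene. Counted over 300 bases, the 250 before and the 50 after the start, Pax6 held 18 CG dinucleotides, Pax9 held 11 and Pax8 held 7, against a median of 7 over the 32851 promoters of the table. The Pax6 window was CpG-rich by a GC content of at least 55% and an observed-to-expected CG ratio of at least 0.6, with 58.7% and 0.698, as were 30.3% of all windows. The Pax9 window had a ratio of 0.679 but a GC content of 47.0%. The Pax8 window was GC-rich, at 59.3%, and poor in CG, with a ratio of 0.288. The motif CCAAT, searched on both strands, was present in the Pax6 and Pax8 windows and in 37.4% of all windows, while TATAAA, on both strands, was in none of the 3 and in 13.6% of all. Pax6 and Pax2 have more than 1 start in the table, and only the start nearest the 5′ end of the gene is shown for Pax6.

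The libraries held between 44341283 and 113931419 counts, with each mate of a read pair counted singly. Libraries of 1 group correlated more with each other (mean Pearson r of log2 CPM across genes 0.9897 to 0.9941) than with any library of another group (highest r 0.9601 to 0.9767), and Auxin replicate 2 had the lowest mean within its group. Suz12 mRNA, which is no measure of a degron acting on the protein, was at 133.1 ± 6.62, 141.3 ± 16.9 and 167.6 ± 4.47 CPM in Mock, Auxin and Reintroduction (mean ± SD, n = 3). It did not pass in Auxin against Mock (log2 fold change 0.09, edgeR quasi-likelihood test, Benjamini-Hochberg adjusted p = 0.335), and was called higher in Reintroduction against Auxin (0.25, adjusted p = 0.0196) and against Mock (0.33, adjusted p = 0.00233). The Suz12 call against Auxin was lost under 5 of 16 alternatives, among them total counts (0.17, edgeR adjusted p = 0.129). That against Mock was lost with length and GC trends removed (-0.035, edgeR adjusted p = 0.394). The 10 pluripotency markers summed to 5790 to 5930 CPM in Mock, 7460 to 7970 in Auxin and 5700 to 5780 in Reintroduction, and 9 of them reached 1 CPM in each group. Of the 10, 7 were called higher and 3 lower in Auxin against Mock, and 2 higher and 7 lower in Reintroduction against Auxin. Long and short genes also weighed differently among libraries: for each doubling of exon length, log2 values moved by -0.244 to -0.167 in Mock, 0.0132 to 0.153 in Auxin and 0.083 to 0.0963 in Reintroduction.

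The 9 Pax genes were at very low levels in every group, and Pax4 had no count in Auxin. No Pax gene reached 1 CPM, a read count scaled to library size with TMM factors, in any of the 9 libraries, and the highest value was 0.745 CPM for Pax9 in Auxin replicate 3. Together the 9 genes took 112 to 183 counts in a Mock library, 120 to 138 in an Auxin library and 73 to 84 in a Reintroduction library. Their summed level was 1.64 ± 0.245 CPM in Mock, 1.74 ± 0.24 in Auxin and 1.21 ± 0.366 in Reintroduction (mean ± SD, n = 3), and the groups overlapped. Counts this small carry a large sampling error. In bulk RNA, fewer cells that transcribe a gene and less RNA per cell cannot be told apart.

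Per transcript length (TPM), the order within Mock was led by Pax1, at 0.157 ± 0.00762 TPM, which lay above 40.3% of protein-coding genes. Pax8 followed at 0.0899 ± 0.0309 and Pax6 at 0.0591 ± 0.00587 TPM, levels that lay within 1 SD of each other. The other 6 Pax genes had means of 0.00444 to 0.0173 TPM in Mock. In Auxin, Pax9 stood first at 0.212 ± 0.0775 TPM, with Pax1 within its spread at 0.167 ± 0.041. Pax3, Pax6, Pax8 and Pax7 came next, at 0.0551, 0.0455, 0.0403 and 0.0363 TPM, with neighbours inside the spread between libraries. In Reintroduction Pax1 was again first, at 0.147 ± 0.0426 TPM, and Pax9 and Pax6 followed at 0.0567 ± 0.039 and 0.0541 ± 0.0119.

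**Figure D1:**
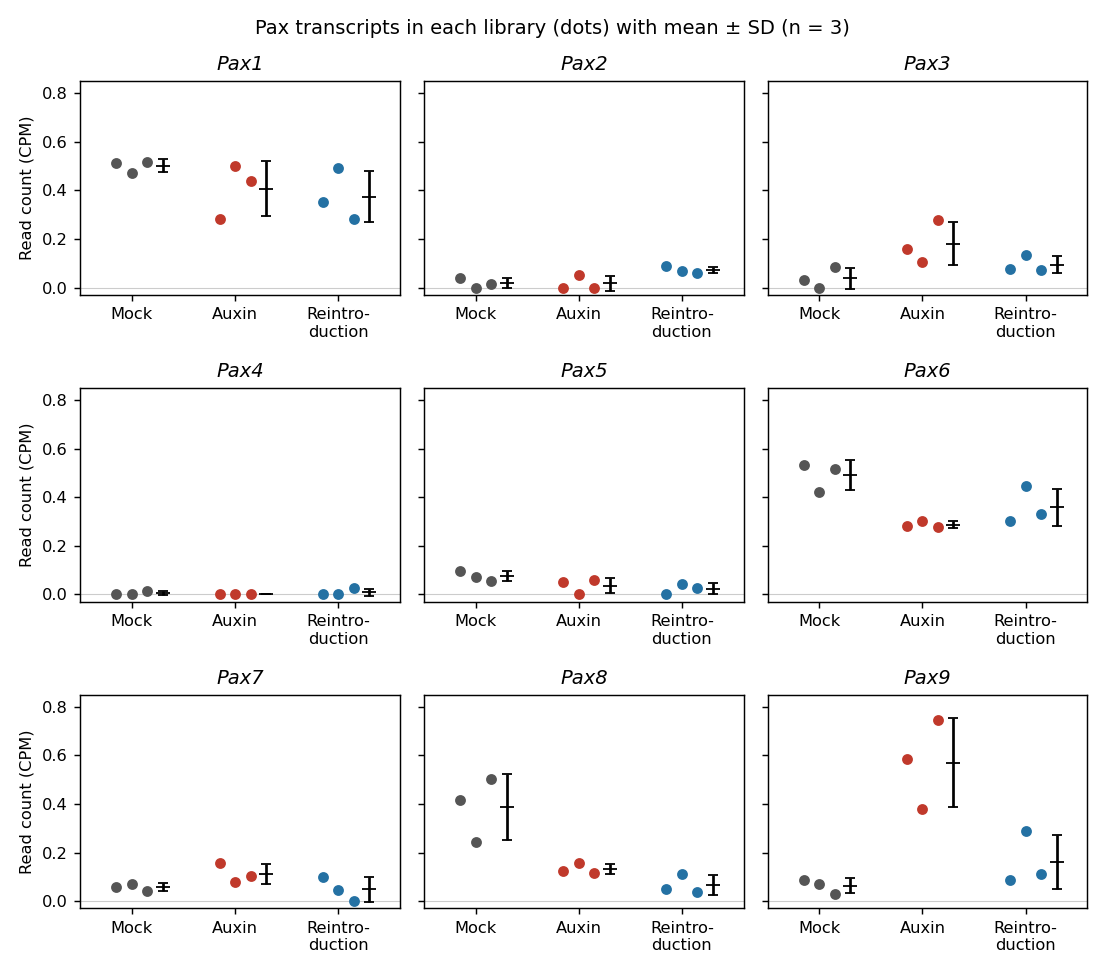
Read counts in CPM of the 9 Pax genes in each library, with 1 dot per library (Mock grey, Auxin red, Reintroduction blue) and the bar giving mean ± SD over 3 libraries. All dots lie under 1 CPM. Comparing the groups within a gene, Pax9 has its highest values in the Auxin libraries and Pax8 has its highest in the Mock libraries.

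Auxin against Mock asks which Pax transcripts differ after depletion of Suz12. Pax9 and Pax3 rose and Pax8 and Pax6 fell, so both directions occurred within the family. Of the 9 genes, 5 passed the filter on low counts and were tested, 2 were called higher, 2 lower and 1 made no call (edgeR quasi-likelihood test, adjusted p under 0.05). In the same comparison 72.9% of all 20838 tested genes were called, 38.2% higher and 34.7% lower, and 74.3% had groups that did not overlap, so the count of Pax calls is near the background. Pax3, Pax8 and Pax9 passed the filter, which asks for about 0.131 CPM in at least 3 libraries, largely through the group where they were high. With total counts in place of TMM factors, 63.2% of all tested genes had a positive fold change against 52.4%, and the median moved from 0.05 to 0.26 on the log2 scale.

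Of the pair that acts in sclerotome and pharynx, Pax9 (ENSMUSG00000001497.18; mm10 chromosome 12, 56691767 to 56712822, plus strand) is needed for tooth and palate formation. Mock libraries 1 to 3 held 9, 6 and 2 Pax9 counts, Auxin libraries 48, 29 and 51, and Reintroduction libraries 7, 13 and 9. Every Auxin library lay above every library of the other groups. Auxin stood at 0.570 ± 0.183 CPM and Mock at 0.0626 ± 0.0309 CPM (n = 3 each), and the edgeR fit gave an 8.52-fold rise. On the log2 scale the rise was 3.09 (SE 0.494, edgeR adjusted p = 9.61e-05), the largest change of the 5 tested Pax genes, and it ranged from 2.80 to 3.42 over 15 alternatives. Pax9 shares exon sequence with Slc25a21, a mitochondrial carrier gene, whose own mean was at most 0.00817 CPM in any group.

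Pax1 (ENSMUSG00000037034.15; chromosome 2, 147361925 to 147393295, plus strand), a regulator of vertebral column formation, is the closest relative of Pax9. Its counts per library were 53, 39 and 37 (Mock), 23, 38 and 30 (Auxin), and 28, 22 and 23 (Reintroduction). The groups overlapped: Auxin replicate 2, at 0.499 CPM, lay inside the Mock range of 0.471 to 0.518 CPM. Its level was 0.501 ± 0.0261 CPM in Mock and 0.406 ± 0.113 in Auxin, a log2 fold change of -0.31 (SE 0.28) that did not pass (edgeR adjusted p = 0.334). Pax1 shares exon sequence with AI646519, and the counting used no strand.

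Among Pax2, Pax5 and Pax8, only Pax8 was high enough to test. Pax8 (ENSMUSG00000026976.15; chromosome 2, 24420560 to 24475599, minus strand) is the thyroid and kidney factor of the subfamily. Mock libraries held 43, 20 and 36 Pax8 counts, Auxin libraries 10, 12 and 8, and Reintroduction libraries 4, 5 and 3. In CPM every Mock library lay above every Auxin library, and every Auxin library above every Reintroduction library. With Mock at 0.388 ± 0.134 CPM and Auxin at 0.132 ± 0.0221, Pax8 fell by 1.53 on the log2 scale (SE 0.401, edgeR adjusted p = 0.00399). It shares exon sequence with Gm13415.

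Pax2 (ENSMUSG00000004231.15), which is required for kidney development, had 4, 0 and 1 counts in the Mock libraries and 0, 4 and 0 in those of Auxin. Pax5 (ENSMUSG00000014030.15), the B cell commitment factor, had 10, 6 and 4 in Mock, against 4, 0 and 4. Both sets of values overlapped between Mock and Auxin. In a fit without the filter, which tested 32989 genes and called 46.9% of them, neither gene was called (adjusted p = 0.993 for Pax2 and 0.387 for Pax5). Pax5 shares exon sequence with 5730488B01Rik and Gm12462.

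Of the neural crest and muscle pair, Pax3 (ENSMUSG00000004872.15; chromosome 1, 78101267 to 78197134, minus strand) acts in the dorsal neural tube and in migrating muscle precursors. Mock libraries held 3, 0 and 6 Pax3 counts, Auxin libraries 13, 8 and 19, and each Reintroduction library 6. All Auxin libraries lay above all Mock libraries, and the lowest, Auxin replicate 2, stood at 0.105 CPM against 0.0839 CPM in Mock replicate 3. Pax3 rose from 0.0377 ± 0.0426 to 0.180 ± 0.0883 CPM, by 2.28 on the log2 scale (SE 0.716, edgeR adjusted p = 0.012). Without Auxin replicate 3 the change was 1.86 and the call was lost (adjusted p = 0.0554), and without Mock replicate 3 it was 3.35. Over 15 alternatives the adjusted p ranged from 0.00352 to 0.0554. Pax7 (ENSMUSG00000028736.13), the factor of muscle satellite cells, had 6, 6 and 3 counts per Mock library and 13, 6 and 7 per Auxin library. In CPM these groups did not overlap, with 0.0575 ± 0.0152 in Mock and 0.113 ± 0.041 in Auxin, but Pax7 failed the filter and was not called without it (edgeR adjusted p = 0.333).

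Pax6 (ENSMUSG00000027168.21; chromosome 2, 105668900 to 105697364, plus strand) is the eye and forebrain factor of the Pax4 and Pax6 subfamily. Pax6 counts per library were 55, 35 and 37 (Mock), 23, 23 and 19 (Auxin), and 24, 20 and 27 (Reintroduction). The 3 Auxin libraries were close together, at 0.278 to 0.302 CPM, and all lay under the lowest Mock library at 0.423 CPM. Pax6 fell from 0.491 ± 0.0601 to 0.287 ± 0.0132 CPM, by 0.78 on the log2 scale (SE 0.257, edgeR adjusted p = 0.0159). The call was lost with total counts (-0.56, adjusted p = 0.0635) and without Mock replicate 1 (-0.71, adjusted p = 0.0569), while with the length trend removed the change was -1.37, and over 15 alternatives the adjusted p ranged from 0.000561 to 0.0635. Pax4 (ENSMUSG00000029706.15), which specifies insulin-producing islet cells, had 1 count in all of Mock, 0 in Auxin and 2 in Reintroduction. The 0 counts in Auxin allow a level of up to 0.0132 CPM, as 3 counts over the group's libraries and for counting error only. This limit treats counts as independent, and since the mates of a pair were counted singly the true limit may be higher.

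**Figure D2:**
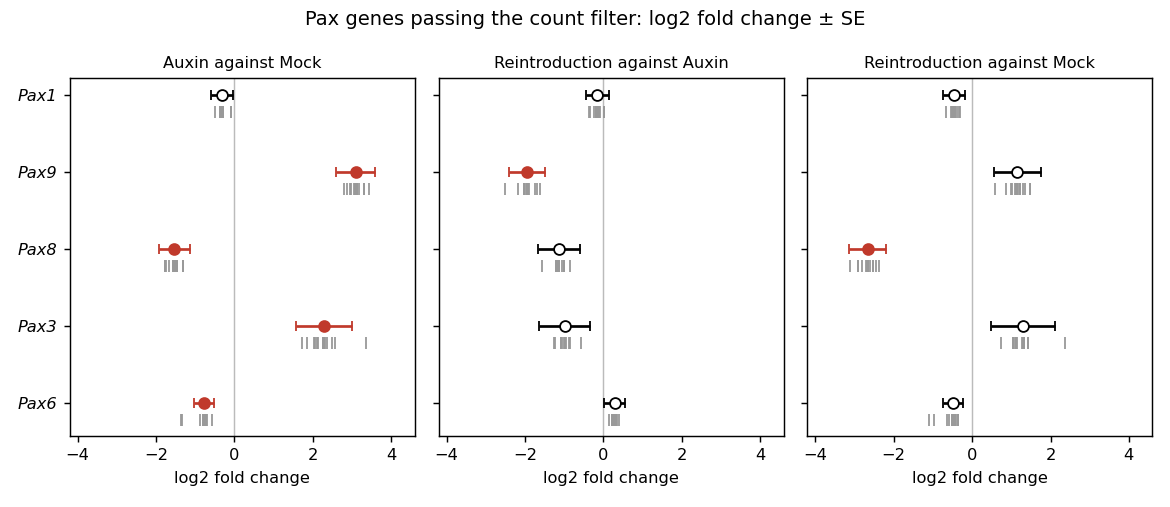
Log2 fold change ± SE of the 5 tested Pax genes in each comparison. Filled red points passed the edgeR quasi-likelihood test at an adjusted p under 0.05, open points did not, and grey ticks are the values under the alternatives. Pax9 lies right of 0 in Auxin against Mock and left of 0 in Reintroduction against Auxin, and Pax8 lies left of 0 in all 3 comparisons.

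Reintroduction against Auxin asks which Pax transcripts had moved 4.5 h after the start of the washout. Pax9 fell and no other Pax gene passed. That is 1 of the 5 tested genes, in a comparison that called 50.8% of all tested genes, 25.3% higher and 25.5% lower, and in which 58.2% had groups that did not overlap. With total counts 39.8% of all tested genes had a positive fold change, against 49.8% with TMM factors.

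Pax9 went from 0.570 ± 0.183 CPM in Auxin to 0.163 ± 0.111 in Reintroduction, where the 3 libraries stood at 0.0878, 0.290 and 0.110 CPM. The highest of these, Reintroduction replicate 2, is the library with the fewest counts, and it lay under the lowest Auxin library at 0.381 CPM. Pax9 fell by 1.94 on the log2 scale, 3.83-fold (SE 0.459, edgeR adjusted p = 0.00359), with a range of -2.50 to -1.62 over 15 alternatives. Pax8 had groups that did not overlap, at 0.132 ± 0.0221 CPM in Auxin and 0.0661 ± 0.0398 in Reintroduction, and a log2 fold change of -1.13 (SE 0.544) that did not pass (edgeR adjusted p = 0.102). For Pax3 the change was -0.99 (SE 0.641, adjusted p = 0.221), for Pax6 0.29 (SE 0.274, adjusted p = 0.406) and for Pax1 -0.15 (SE 0.299, adjusted p = 0.701), and the groups overlapped for all 3. Pax2 had 7, 3 and 5 counts in Reintroduction, more in CPM than any Auxin library, and was not called without the filter (edgeR adjusted p = 0.242, with 30.6% of 32989 genes called). Pax5 had 0, 2 and 2 counts and Pax7 8, 2 and 0, and both overlapped with Auxin.

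Reintroduction against Mock asks which Pax transcripts still stood apart from untreated cells after the washout. Pax8 was lower, and it was the only call among the 5 tested Pax genes, while 67.9% of all tested genes were called, 34.5% higher and 33.5% lower, and 75.2% had groups that did not overlap. The 3 comparisons share their libraries and are not independent of each other. With total counts 59.7% of all tested genes had a positive fold change, against 50.7% with TMM factors.

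Pax8 was at 0.388 ± 0.134 CPM in Mock and at 0.0661 ± 0.0398 in Reintroduction, and in the edgeR fit it was 6.35-fold lower. It fell by 2.67 on the log2 scale (SE 0.472, edgeR adjusted p = 0.000282), and the range was -3.11 to -2.38 over 15 alternatives. Pax9 libraries of Reintroduction all lay above those of Mock, the closest at 0.0878 against 0.0874 CPM, and the log2 fold change of 1.15 (SE 0.593) did not pass (edgeR adjusted p = 0.103). Pax3 had a change of 1.29 (SE 0.812, edgeR adjusted p = 0.176). Without Mock replicate 3 it was 2.36 and was called (adjusted p = 0.0469, the lowest of a range up to 0.391 over 15 alternatives). Pax6, at 0.359 ± 0.0762 CPM in Reintroduction, had a change of -0.49 (SE 0.256) that did not pass (edgeR adjusted p = 0.11). It was called lower with the length trend removed (-1.10, adjusted p = 0.00334) and with length and GC trends removed (-0.98, adjusted p = 0.00558), in a range up to 0.279 over 15 alternatives. Pax1 had a change of -0.46 (SE 0.29, edgeR adjusted p = 0.173). Pax2 and Pax5 had groups that did not overlap, Pax2 higher and Pax5 lower in Reintroduction, and neither was called without the filter (edgeR adjusted p = 0.204 and 0.186, with 42.6% of 32989 genes called).

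Pax proteins work with cofactors and within tissue programmes, and 84 genes of these kinds were followed, of which 83 were found in the tables and 53 were tested. In Auxin against Mock 29 were called higher and 14 lower, 81.1% of those tested, in Reintroduction against Auxin 12 and 13 (47.2%), and in Reintroduction against Mock 28 and 16 (83.0%). These shares stand beside 72.9%, 50.8% and 67.9% of all tested genes.

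Among the cofactors, PTIP (Paxip1) links Pax proteins to the KMT2C and KMT2D methyltransferase complex, and the Groucho proteins (Tle genes) are corepressors. After auxin 5 of the 12 tested were called higher and 6 lower (median log2 fold change -0.14, and 0.05 over all tested genes). With total counts, 5 were higher and 5 lower, at a median of 0.07. Kmt2c rose by 2.48 on the log2 scale, from 29.7 ± 4.16 to 165.2 ± 44.7 CPM (edgeR adjusted p = 4.41e-06). Kmt2d (0.78), Kdm6a (0.77) and Ncoa6 (1.05) were called higher too. Daxx, a histone chaperone that binds Pax proteins, fell by 1.22. Of the Groucho genes Tle2 (-1.64), Tle6 (-1.36), Tle1 (-0.41) and Tle4 (-0.22) were called lower. Among them only Tle3 was called higher, by 0.90, from 99.4 to 185.5 CPM. With length and GC trends removed, 6 of the cofactors were higher and 6 lower. Several genes named here and in the lists that follow share exon sequence with another gene, which leaves their counts uncertain. They are Kmt2c, Tle1, Tle2, Tbx18, Bmp4, Gata3, Tfap2a, Neurog3, Meis1, Maf and Prox1. In Reintroduction against Auxin Tle6 (0.49), Paxip1 (0.45) and Daxx (0.40) were higher and Tle3 (-0.58) was lower. Paxip1 was called lower in Auxin against Mock (-0.46, edgeR adjusted p = 1.54e-06) and made no call in Reintroduction against Mock (-0.01).

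Proteins of the Eya and Dach families and homeodomain partners such as Six4 form a network with Pax proteins in eye, ear, kidney and muscle. Of 8 tested members, 5 rose and 2 fell in Auxin against Mock, at a median of 0.40, but with length and GC trends removed 4 were higher and 4 lower, at a median of 0.07. Dach2 rose by 2.46, from 0.381 ± 0.0524 to 2.10 ± 0.208 CPM, and Six5 fell by 0.72 and Eya3 fell by 0.42. Dach1 (3.02) and Eya4 (2.34) were also called higher. Six4 was higher by 0.47, but with length and GC trends removed it was called lower (-0.14, edgeR adjusted p = 0.00509). In Reintroduction against Auxin 1 was called higher and 1 lower, the latter Dach1 (-0.75), and with length and GC trends removed 3 were higher and 1 lower.

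Of the skeletal and pharyngeal genes, the setting of Pax1 and Pax9, 4 of 11 were tested in Auxin against Mock and 3 were called higher and 1 lower. Tbx18, a regulator of somite polarity, rose by 3.27, from 0.928 ± 0.0822 to 8.97 ± 0.829 CPM (edgeR adjusted p = 8.96e-11). Bmp4, a signal of pharyngeal and limb tissue, fell by 1.24, from 74.3 ± 2.74 to 31.6 ± 1.31 CPM, and rose by 0.85 in Reintroduction against Auxin. Osr2, a palate gene, rose by 1.64 and Foxc2, a sclerotome gene, by 1.00, and Foxc2 fell by 2.80 in Reintroduction against Auxin. The sclerotome genes Nkx3-2, Uncx and Meox1 and the thymus factor Foxn1 were too low to test.

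Of the kidney, thyroid, B cell and midbrain genes, the setting of Pax2, Pax5 and Pax8, 5 of 10 tested were called higher and 3 lower in Auxin against Mock. Ret, the receptor that guides the ureteric bud, rose by 2.36, from 0.670 ± 0.0891 to 3.44 ± 0.237 CPM (edgeR adjusted p = 2.31e-07), and fell by 1.24 in Reintroduction against Auxin. Sall1, a kidney factor that stem cells also express, rose by 1.04. En1, a midbrain gene, fell by 1.30 in Auxin against Mock and rose by 0.85 in Reintroduction against Auxin. Ebf1 was higher by 0.86, a call that was lost with length and GC trends removed (0.25, edgeR adjusted p = 0.0967). The kidney gene Gata3 was called higher (2.21), and the midbrain genes En2 (-0.66) and Fgf8 (-2.28) were called lower. The thyroid gene Nkx2-1 and the B cell genes Cd79a and Blk failed the filter.

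Of the neural crest and muscle genes, the setting of Pax3 and Pax7, 5 of 10 tested were called higher and 0 lower in Auxin against Mock, and 7 and 1 with length and GC trends removed. Met, a receptor of migrating muscle precursors, rose by 1.68, from 4.52 ± 0.207 to 14.5 ± 1.72 CPM (edgeR adjusted p = 4.09e-09). Tfap2a, a neural crest factor, rose by 1.37 and Msx2 by 0.74. Snai2, a neural crest gene, was higher by 1.25. Dmrt2, a dermomyotome gene, was higher by 2.81 in Auxin and by 3.02 in Reintroduction, each against Mock. The tested genes named here all rose, but 5 of the 10 made no call in Auxin against Mock. In Reintroduction against Mock 5 were called higher and 3 lower, at a median of 0.22, and in Reintroduction against Auxin 1 was higher and 2 were lower. The muscle genes Myf5 and Myod1 failed the filter.

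Of the eye, neural and islet genes, the setting of Pax4 and Pax6, 6 of 9 tested rose and 2 fell in Auxin against Mock, at a median of 2.39. Meis2, a cofactor of eye and brain development, rose by 3.91, from 2.51 ± 0.399 to 37.8 ± 2.43 CPM (edgeR adjusted p = 1.04e-11). Otx2, an anterior neural factor, rose by 3.08, Prox1 by 2.42 and Isl1 by 2.39. After the washout Isl1 fell by 0.57 against Auxin, and Meis2 (3.94), Otx2 (2.92) and Prox1 (2.49) were still higher in Reintroduction against Mock. Maf, a lens and islet gene, rose by 4.38 and fell by 3.65 after the washout, and Meis1 rose by 1.87. Neurog3, which starts the islet programme, fell by 2.41 in Auxin against Mock. Eomes fell by 0.46 in Auxin against Mock and rose by 1.38 in Reintroduction against Auxin.

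**Figure D3:**
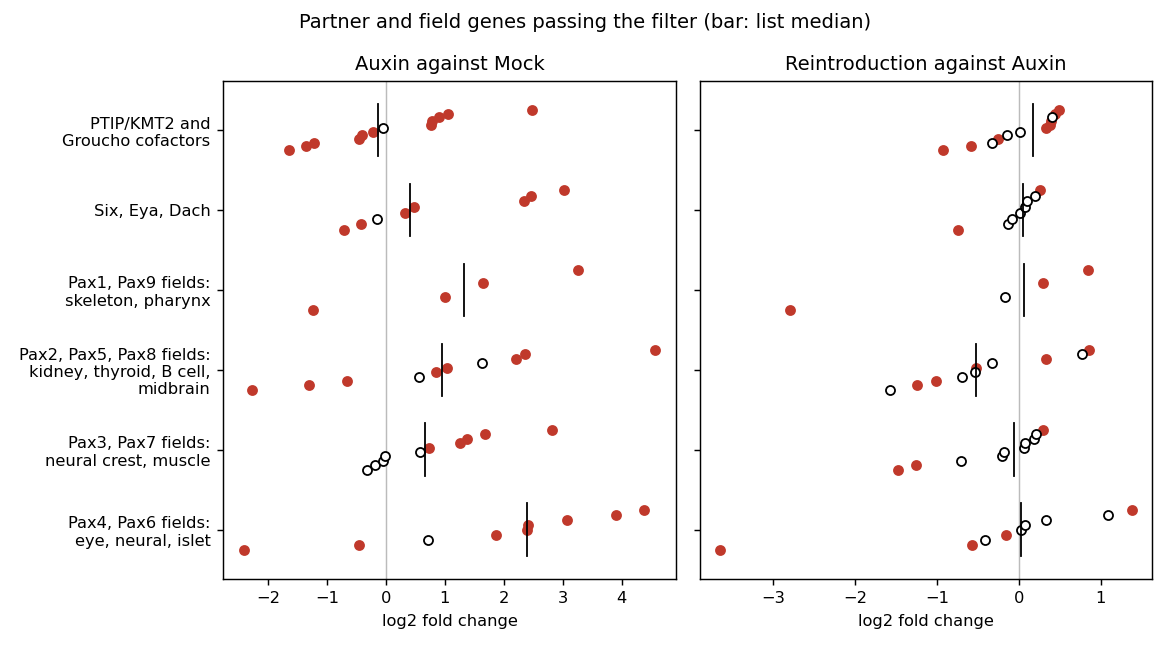
Log2 fold changes of the tested partner and field genes, 1 point per gene and 1 row per list, with filled red points for calls, open points for no call and a vertical bar at the list's median. In Auxin against Mock the eye, neural and islet genes have the highest median, 2.39, and the cofactors lie on both sides of 0.

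Markers of other cell types differed between the groups. Summed over 8 primitive endoderm markers, the range was 13.4 to 15.0 CPM in Mock, 25.5 to 27.4 in Auxin and 19.4 to 20.6 in Reintroduction. The 6 neuroectoderm markers summed to 18.9 to 19.7, 14.3 to 15.0 and 17.6 to 18.7 CPM, with Hes5 and Olig2 at 0 in Reintroduction, and the 6 mesoderm markers to 48.3 to 49.9, 27.6 to 30.2 and 70.5 to 73.2. The 6 trophoblast markers summed to 29.7 to 31.5, 83.7 to 92.6 and 44.5 to 49.8 CPM, and the 6 fibroblast markers to 17.8 to 20.0, 39.1 to 46.4 and 37.4 to 38.8, with S100a4 at 0 in all groups and Col3a1 at 0 in Auxin. Single genes carried much of these sums. Tfap2c had 86.6 of the trophoblast CPM in Auxin and Thy1 41.2 of the fibroblast CPM, and 5 of 6 markers of each list were under 1 CPM there. Eomes, which is also among the eye, neural and islet genes above, had 25.6 of the mesoderm CPM in Auxin and 66.9 in Reintroduction. In Auxin against Mock 7 of the 8 primitive endoderm markers were called higher and 1 lower, at a median log2 fold change of 1.71. The other lists were mixed: 1 higher and 1 lower for neuroectoderm, 1 and 3 for mesoderm, 3 and 2 for trophoblast, and 1 and 1 for fibroblast. Of all tested genes 38.2% were called higher and 34.7% lower. Elf5 and Mesp1, defining markers of trophoblast and mesoderm, were too low to test. The part of these cell types in the Pax values was not tested.

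The protein-coding genes nearest to the Pax genes, up to 2 on each side within 500 kb, were 31, of which 23 were tested. Auxin against Mock called 9 higher and 4 lower (56.5%), Reintroduction against Auxin 5 and 11 (69.6%), and Reintroduction against Mock 12 and 5 (73.9%), beside 72.9%, 50.8% and 67.9% of all tested genes. With length and GC trends removed, the last of these counts was 7 higher and 7 lower (median -0.04, against 0.23), and that for Auxin against Mock was 11 and 6. Around Pax8, which fell in Auxin against Mock, neighbours went both ways. Psd4, 5.61 kb from Pax8, rose by 2.16 in Auxin against Mock, from 0.642 ± 0.0564 to 2.88 ± 0.44 CPM (edgeR adjusted p = 5.89e-08), and Cacna1b, a calcium channel gene 128.0 kb away, rose by 1.77. Ehmt1, 314.0 kb away, fell by 0.19 (edgeR adjusted p = 0.00554), a call that was lost with total counts (0.02). In Reintroduction against Auxin Psd4 (-0.50) and Cacna1b (-0.62) were lower, beside the change of -1.13 in Pax8 that did not pass, and the call of Cacna1b was lost with length and GC trends removed (-0.51). Klhdc7a, Ehmt1, Sgpp2 and Farsb share exon sequence with another gene. At Pax6, Elp4, 3.66 kb away, was higher by 0.42 and Rcn1, 270.0 kb away, fell by 0.74.

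At Pax9, the homeobox gene Nkx2-9, 78.5 kb away, had a log2 fold change of 0.57 in Auxin against Mock that did not pass (edgeR adjusted p = 0.0723) and was called higher with total counts (0.79) and with length and GC trends removed (1.08). In Reintroduction against Auxin Nkx2-9 fell by 1.61 (edgeR adjusted p = 0.000828), beside the fall of Pax9 by 1.94. In Reintroduction against Mock Nkx2-9 was called lower (-1.03, edgeR adjusted p = 0.0113), while Pax9 had a change of 1.15 that did not pass. That Nkx2-9 call was lost with length and GC trends removed (-0.60, edgeR adjusted p = 0.109). Nkx2-9 means were 0.399, 0.597 and 0.195 CPM in Mock, Auxin and Reintroduction. Around Pax7, which stayed under the filter, Klhdc7a, 127.0 kb away, rose by 3.95 in Auxin against Mock, from 0.976 ± 0.0946 to 15.1 ± 0.42 CPM (edgeR adjusted p = 8.9e-12), and Igsf21, 193.0 kb away, by 1.94. In Reintroduction against Auxin Klhdc7a fell by 1.02. The neighbours of Pax3, Sgpp2 and Farsb, had log2 fold changes of 0.03 and -0.10 in Auxin against Mock and did not pass, where Pax3 rose by 2.28, but Farsb was called lower without Auxin replicate 2 (-0.18, edgeR adjusted p = 0.00116).

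**Figure D4:**
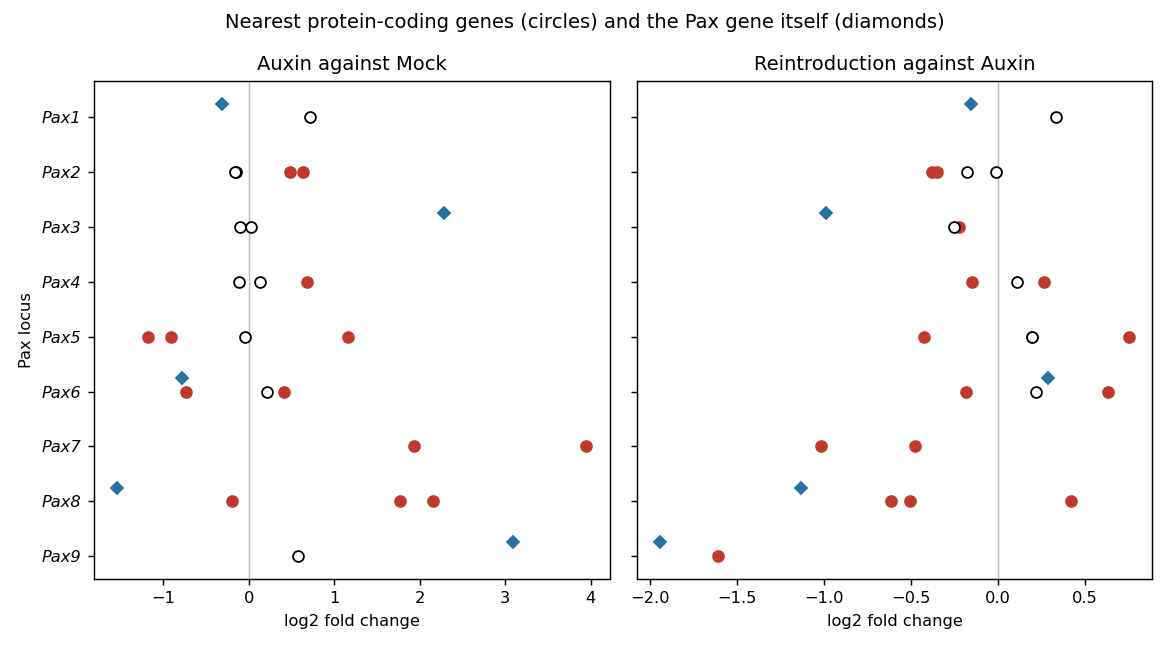
Log2 fold changes of the tested genes nearest to each Pax gene (circles, filled red for calls and open for no call) and of the Pax gene itself where it was tested (blue diamonds, whether called or not), by locus. At Pax8 the diamond lies left of 0 in Auxin against Mock, Psd4 and Cacna1b lie right of 0, and Ehmt1 lies left of 0 at -0.19.

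Pax1 and Pax9 reached a mean of 0.5 CPM in some group, and the genes most like them over the 9 libraries were sought by Pearson correlation of log2(CPM + 0.1) among 15931 genes. For Pax9 the first were Cnksr1 (r = 0.982) and Fbxo36 (0.972), both highest in Auxin. Cnksr1 was at 0.995 ± 0.122, 2.36 ± 0.201 and 1.31 ± 0.201 CPM in Mock, Auxin and Reintroduction. For Pax1 they were Aif1l (0.90), Gm7507 (0.897) and Gm28527 (0.895), each highest in Mock. These correlations are over libraries that fall into 3 groups and share their depth with the genes compared, and they are given as a description.

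A smaller share of the Pax genes than of the Hox or T-box genes reached 1 CPM. By group mean, 0 of 9 Pax genes reached 1 CPM in any group, against 18 of 39 Hox genes and 9 of 17 T-box genes. Of 26 tested Hox genes, 22 were called higher and 1 lower in Auxin against Mock, and of 13 tested T-box genes 6 were higher and 4 lower, beside 2 and 2 of 5 tested Pax genes. Of all tested genes 38.2% were called higher and 34.7% lower in that comparison. In Reintroduction against Auxin 5 Hox genes were called higher and 10 lower, and 4 T-box genes higher and 2 lower, beside 25.3% and 25.5% of all tested genes. The difference between the families was not tested.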

How the data were processed

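Raw read counts per gene were the deposited values, without normalization. Per the file headers, the authors counted mm10 alignments with featureCounts 2.0.6 (exons summed per gene, the paired-end flag set, no strand setting). Mates were counted singly, so even counts were more common than odd ones, and genes that overlap an antisense partner (9924 share exon sequence with another gene) have uncertain counts. The submitters' processing notes also name Trim Galore 0.6.10, FastQC 0.12.1, Bowtie2 2.5.3 and SAMtools 1.20, without their roles.

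Of 48440 genes, 48058 had a symbol in the table used, matched on the identifier. Genes passing filterByExpr (minimum count 10) were kept, and the edgeR quasi-likelihood model held all 9 libraries, TMM factors (0.9045 to 1.079) and no term but group. Tests were two-sided, with Benjamini-Hochberg adjustment over 20838 genes and calls at an adjusted p under 0.05. The standard error was derived from the F statistic, and the common biological coefficient of variation was 9.15%. CPM and TPM were computed from the counts, and the mean ± SD is over 3 libraries. GC content, known for 99.2% of genes, came from GENCODE M21, and promoter sequences from RefSeq (GRCm38.p6; 7 of the 9 Pax genes matched). The fit was tested on simulated data. Work was done in R 4.3.3 with edgeR 4.0.16 and limma 3.58.1, and DESeq2 1.42.0 for alternatives.

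Alternatives were DESeq2 size factors, total counts, no filter, at least 1 CPM in 3 libraries, DESeq2's Wald test, fits of 2 groups at a time, a replicate block, halved counts, length and GC trends removed, and each library left out. The Pax genes, the gene lists and the tests were chosen with earlier results of these data known. Besides Suz12 and the 9 Pax genes, the text names up to 4 called genes of each list with the largest change (higher mean at least 1 CPM, groups not overlapping), the 3 genes most like a Pax gene of at least 0.5 CPM, and called neighbours of at least 1 CPM. Nkx2-9, Sgpp2, Farsb and the other list members named, below 1 CPM or beyond the first 4, were added after their values were seen. Tle5 was not matched and is not analysed here, and some genes to which the naming rule applies are not reported here. The labels call the libraries biological replicates but name no separate cultures, so the p-values measure the spread between these libraries.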

Additional observations from a re-analysis of the deposited data

How the results depend on the processing

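Very low counts limit these results. With at least 1 CPM asked in 3 libraries no Pax gene was left, so that setting gave no Pax value. Under the other 15 alternatives per gene the calls of Pax9 and Pax8 in Auxin against Mock, of Pax9 in Reintroduction against Auxin and of Pax8 in Reintroduction against Mock kept their direction and passed. In Auxin against Mock, with libraries left out 1 at a time, 1 to 2 Pax genes were called higher and 1 to 2 lower, and with total counts 1 was lower. In Reintroduction against Mock 0 to 1 were called higher when a library was left out, and 2 were lower with the length trend removed and 2 with length and GC trends removed. The change of Pax1 in Reintroduction against Auxin, which did not pass, was 0.024 without Auxin replicate 2 and 0.01 without Reintroduction replicate 3, in a range from -0.369 when 1 library was left out. Suz12 changed sign in Auxin against Mock with the length trend removed (-0.031) and with length and GC trends removed (-0.15, called lower, edgeR adjusted p = 0.00206), and in Reintroduction against Mock with the latter (-0.035), while in Auxin against Mock it was called higher with total counts (0.30, adjusted p = 0.00781) and without Auxin replicate 2 (0.18, adjusted p = 0.00209); its adjusted p ranged up to 0.763. The cause was not tested.

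With the replicate block, 2 Pax genes were called higher and 2 lower in Auxin against Mock (Pax9 3.10, edgeR adjusted p = 0.00055), 1 lower in Reintroduction against Auxin (Pax9 -1.94, adjusted p = 0.0109) and 1 lower in Reintroduction against Mock (Pax8 -2.66, adjusted p = 0.00133), and no Pax call changed. The replicate numbers gave no sign of pairing the samples: libraries of the same number deviated from their group means with correlations of -0.172 to 0.055, and not every library correlated best with its own number. Such correlations cannot show whether libraries of the same number were handled together. Counts of all called genes were 12654 to 16007, 9172 to 11584 and 12214 to 14989 over 16 alternatives in the 3 comparisons.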
